A study of Drosophila melanogaster with 8 samples.

Results

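Ecdysone is the steroid hormone of insects, and 9 genes that supply its sterol precursor, build it, activate it or inactivate it were followed here in Drosophila melanogaster ovaries: Npc1a, Start1, nvd (neverland), spo (spook), phm (phantom), dib (disembodied), sad (shadow), shd (shade) and Cyp18a1. They were taken by gene symbol from the 14094 genes listed for each library, and all 9 were found. The values come from RNA sequencing of 8 libraries of total RNA from adult ovaries dissected 1 to 3 days after eclosion. Libraries labelled as a germline knockdown (GKD) of stwl, the gene stonewall, were compared with control libraries for each of 2 germline drivers, and each driver had its own controls. The labelled genotypes were nosGAL4;stwl RNAi/TM6 for the nosGAL4 GKD group, nosGAL4;MKRS/TM6 for its control, bamGAL4>stwl RNAi/TM6 for the bamGAL4 GKD group and bamGAL4 alone for its control, with 2 libraries in each of these 4 groups. MKRS and TM6 are balancer chromosomes. TM6 was thus listed in both nosGAL4 groups but, of the bamGAL4 groups, in the GKD group and not in the control, so that in the bamGAL4 pair an effect of TM6 and an effect of the hairpin cannot be told apart. The same holds for MKRS in the nosGAL4 pair, which only its control carried. As background, nosGAL4 drives expression in germ cells including the stem cells and bamGAL4 in the dividing cysts that follow them, so neither is meant to act in the somatic cells of the ovary. Nothing in the labels says that the libraries of a group came from separate flies or cultures, and p-values then measure the spread between these libraries.

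Flies cannot make sterols and take them from food. As background, Npc1a carries sterol out of the endosomal system, Start1 is a relative of the vertebrate lipid-transfer protein StAR, nvd starts the conversion of cholesterol, spo acts in the poorly understood steps that follow, and phm, dib and sad add hydroxyl groups in turn to give ecdysone. The enzyme shd then makes the more active form of the hormone, and Cyp18a1 inactivates it. In the adult female the ovary is a source of ecdysteroids, which follicle cells and germ cells need for stem cell maintenance, egg chamber growth and vitellogenesis.

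Total counts were between 7473851 and 12174984 per library, so that 3 counts, used here as the detection floor, correspond to 0.238 to 0.405 CPM, the read count of a gene relative to the library's total, here scaled with TMM factors. The libraries labelled GKD did not have less stwl RNA: it stood at 61.1 and 27.7 CPM in nosGAL4 GKD libraries and 23.1 and 16.9 CPM in nosGAL4 control libraries, and at 23.2 and 29.6 CPM in bamGAL4 GKD libraries and 18.2 and 21.0 CPM in bamGAL4 control libraries. In edgeR's test stwl was called higher with nosGAL4 (log2 fold change 1.15, adjusted p = 0.0203) and was not called with bamGAL4 (0.43, adjusted p = 0.313). Values from whole ovaries do not give the level in germ cells, so a knockdown there could not be checked. The labels are therefore used here as names of libraries only. Tissue markers differed widely between the groups. The summed level of 10 germline markers was 70.1 to 541 CPM in the 4 GKD libraries, against 3055 to 4608 CPM in the 4 control libraries, and that of 14 late follicle cell markers was 181 to 4656 CPM against 20329 to 28171 CPM. Summed levels of 11 escort, niche and early follicle cell markers were 3836 to 7966 CPM in GKD libraries and 262 to 544 CPM in control libraries, where en and Lmx1a were at 0. For markers of other tissues the summed levels were 36564 to 50544 CPM in GKD libraries against 334 to 503 CPM in control libraries for 10 muscle genes, 3178 to 7302 CPM against 174 to 234 CPM for 8 haemocyte genes (NimC1 and He at 0 in all controls), and 683 to 9103 CPM against 11.3 to 50.8 CPM for 9 fat body genes. The remaining lists gave 706 to 3976 CPM in GKD libraries and 387 to 571 CPM in control libraries for 4 oenocyte genes, 598 to 1282 CPM and 84.0 to 94.0 CPM for 7 Malpighian tubule genes (Lkr at 0 in all controls), 185 to 324 CPM and 2.06 to 7.39 CPM for 7 neuronal genes (para at 0 in all controls), 151 to 265 CPM and 4.45 to 21.5 CPM for 5 oviduct and spermatheca genes, and 35.9 to 94.3 CPM and 2.25 to 224 CPM for 8 gut genes. The gut sums differed by driver: 94.3 and 35.9 CPM in nosGAL4 GKD libraries, against 2.78 and 2.25 CPM in nosGAL4 control libraries. In bamGAL4 GKD libraries they were 65.3 and 93.8 CPM, against 104 and 224 CPM in bamGAL4 control libraries. With both drivers all 10 germline markers were called lower and all 10 muscle and all 8 haemocyte markers higher, while 9 of 14 late follicle cell markers were called lower with nosGAL4 and 14 of 14 with bamGAL4. Of the 10 escort, niche and early follicle cell markers tested, 9 were called higher with both drivers, and of 9 fat body markers 8 with nosGAL4 and 9 with bamGAL4. Among 5 Malpighian tubule markers tested, 3 were called higher and 1 lower with each driver. Gut markers, 7 tested, gave 5 higher and 0 lower with nosGAL4, and 2 higher and 1 lower with bamGAL4. Oenocyte markers, 4 tested, gave 3 higher with nosGAL4 and 4 with bamGAL4, and 0 lower. Neuronal markers, 6 tested, gave 5 and 4 higher, and 0 lower. Oviduct and spermatheca markers, 4 tested, gave 3 higher and 0 lower with each driver. In whole ovaries, fewer cells of a type and less RNA per cell cannot be told apart, and the part of these markers in the results on the ecdysone genes was not tested.

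Among the 9 genes, Npc1a and phm rose in GKD libraries of both drivers. With nosGAL4 the genes nvd, shd and Cyp18a1 rose as well and none fell, whereas with bamGAL4 spo and dib fell. The gene sad passed the test with neither driver, nor did Start1. A change was called at a Benjamini-Hochberg adjusted p under 0.05 in edgeR's quasi-likelihood test, adjusted over the 8957 genes that passed the filter on low counts. All 9 genes passed that filter, phm through the GKD groups alone, dib through the control groups alone, and shd through all groups but the nosGAL4 control.

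**Figure D1:**
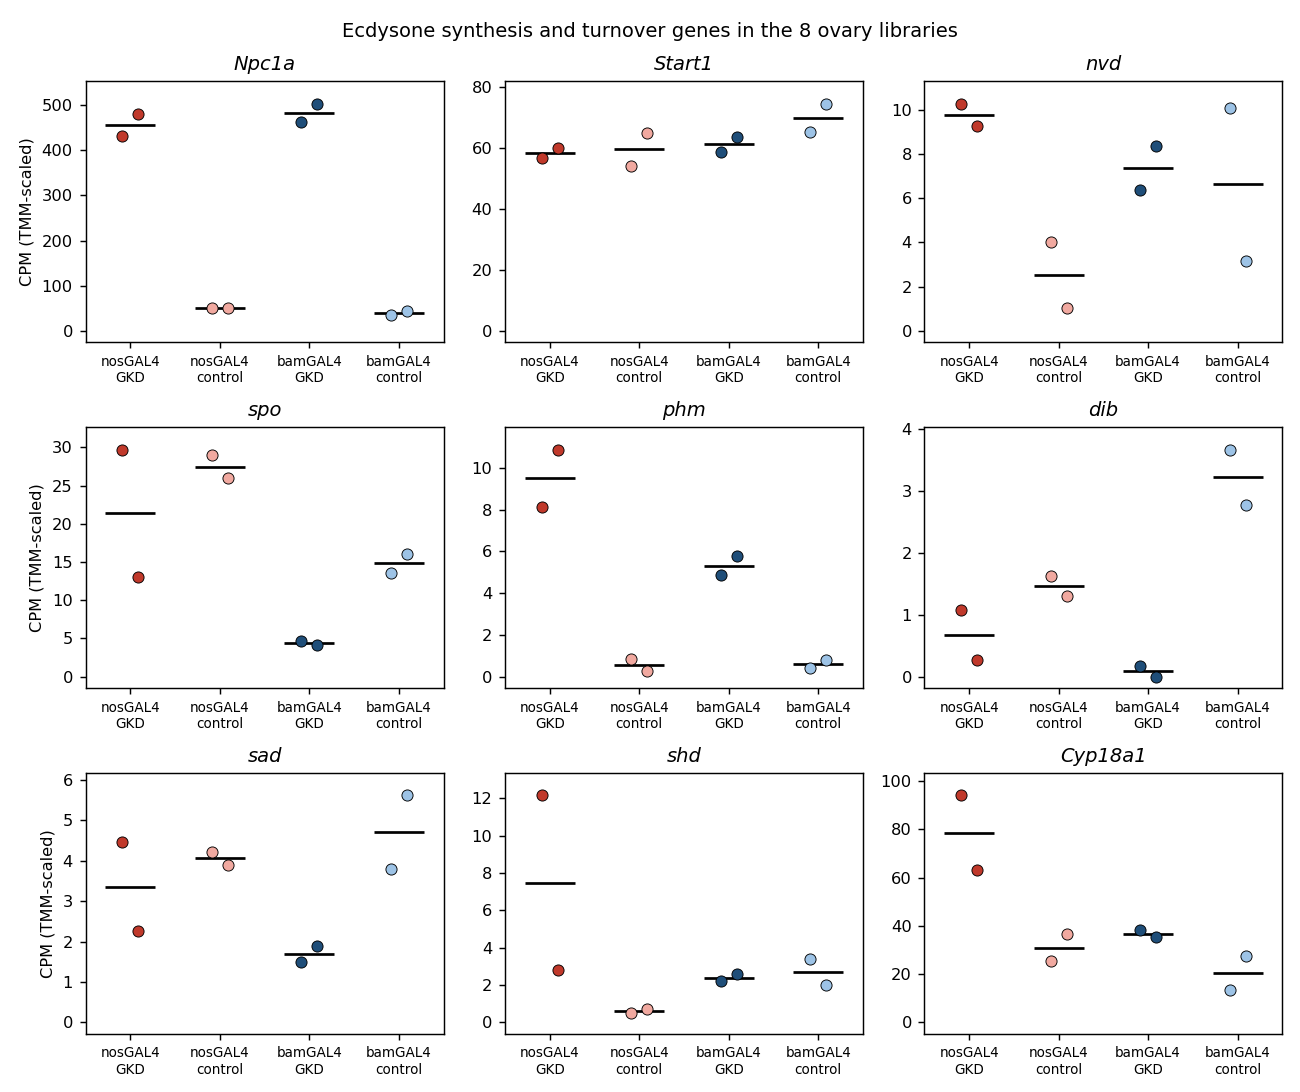
TMM-scaled CPM of the 9 ecdysone genes (1 panel each, linear axis that includes 0) in the 8 libraries, with 1 point per library, a bar at the mean of each group, and each GKD group left of its control. Npc1a was at 431 to 503 CPM in the 4 GKD libraries and at 35.2 to 50.3 CPM in the 4 control libraries, while Start1 was between 54.3 and 74.7 CPM in all 8.

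The sterol carrier Npc1a, the fly counterpart of the human Niemann-Pick C1 protein, differed most evenly between the groups. Gene FBgn0024320 lies on the minus strand at chr2L:10213812-10221216 of dm6. It was at 431 and 481 CPM in nosGAL4 GKD libraries, against 50.3 and 50.2 CPM in nosGAL4 control libraries. In bamGAL4 GKD libraries it was at 463 and 503 CPM, against 35.2 and 43.5 CPM in bamGAL4 control libraries. Every GKD library was far above every control library, and libraries of a group lay close together. The ratio of group means was 9.08 with nosGAL4 (log2 fold change 3.18, SE 0.22, adjusted p = 1.5e-06) and 12.3 with bamGAL4 (3.62, SE 0.23, adjusted p = 6.43e-07). Among all genes tested, its level per transcript length stood at the 90.2 percentile in nosGAL4 GKD ovaries against 42.0 in the nosGAL4 control, and at 91.3 in bamGAL4 GKD ovaries against 37.4 in the bamGAL4 control. The call held under all alternatives tried, with log2 fold changes between 2.60 and 3.26 for nosGAL4 and between 2.44 and 4.49 for bamGAL4, where the lowest bamGAL4 value came with a correction for transcript length and the highest with scaling to ribosomal protein genes.

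Start1, whose product carries the START lipid-binding domain also found in StAR, showed no change that passed the test. The gene, FBgn0035028, lies on the plus strand at chr2R:24574559-24577676. It was at 56.9 and 60.0 CPM in nosGAL4 GKD libraries, against 54.3 and 65.1 CPM in nosGAL4 control libraries, and these values interleaved. In bamGAL4 GKD libraries it was at 58.8 and 63.8 CPM, against 65.4 and 74.7 CPM in bamGAL4 control libraries, so that both GKD libraries lay just under both controls. The log2 fold change was -0.03 (95% interval -0.51 to 0.45, adjusted p = 0.915) with nosGAL4 and -0.19 (-0.67 to 0.29, adjusted p = 0.446) with bamGAL4 in edgeR's test. The intervals thus leave out a change of 2-fold in either direction under this scaling, though the sign turned with the scaling used. Its transcript overlaps the neuropeptide gene SIFa on the other strand by 111 bases, and SIFa had 0 counts in all 8 libraries.

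Of the enzymes that open the pathway, nvd rose with nosGAL4 and spo fell with bamGAL4. The oxygenase nvd (FBgn0287185, plus strand, chr3L:24324866-24401655) was at 10.3 and 9.28 CPM in nosGAL4 GKD libraries and at 4.03 and 1.04 CPM in nosGAL4 control libraries. With bamGAL4 it was at 6.38 and 8.35 CPM in GKD libraries and at 10.1 and 3.17 CPM in control libraries. The nosGAL4 GKD libraries lay above both of their controls, while the bamGAL4 GKD libraries fell between their controls, of which replicate 1 was high and replicate 2 low. The log2 fold change was 1.95 (SE 0.71, adjusted p = 0.036) with nosGAL4 and 0.17 (SE 0.67, adjusted p = 0.83) with bamGAL4 in edgeR's test. The nosGAL4 call was lost under 8 of 17 alternatives. Its log2 fold change was 1.27 (adjusted p = 0.176) without nosGAL4 control replicate 2 and 3.20 without nosGAL4 control replicate 1, and it missed the threshold in the same edgeR test without nosGAL4 GKD replicate 1 (1.87, adjusted p = 0.0644), bamGAL4 GKD replicate 1 (1.94, adjusted p = 0.0582) or bamGAL4 GKD replicate 2 (1.94, adjusted p = 0.0633). Most of the length of nvd is intron, which holds 4 annotated transposable elements, none of them overlapping an exon.

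The monooxygenase spo (FBgn0003486, minus strand, chr3L:5590083-5592571) was at 29.7 and 13.0 CPM in nosGAL4 GKD libraries, against 29.0 and 26.0 CPM in nosGAL4 control libraries. In bamGAL4 GKD libraries it was at 4.70 and 4.17 CPM, against 13.6 and 16.0 CPM in bamGAL4 control libraries. With bamGAL4 both GKD libraries were well below both controls, and with nosGAL4 replicate 1 of the GKD group was just above its controls while replicate 2 was below them. The bamGAL4 ratio of means was 0.30 (log2 fold change -1.74, SE 0.40, adjusted p = 0.00302 in edgeR's test). With scaling to ribosomal protein genes it was -0.88 on the log2 scale (adjusted p = 0.0542). With nosGAL4 the log2 fold change of -0.36 (SE 0.37, adjusted p = 0.417) did not pass, but it became -1.09 (adjusted p = 0.013) without nosGAL4 GKD replicate 1. The gene shares 308 exonic bases with l(3)psg2 on the opposite strand, whose own log2 fold changes were -0.12 (adjusted p = 0.724) with nosGAL4 and 1.49 (adjusted p = 0.000807) with bamGAL4. No source used here says whether strand was used in counting, and reads of the shared bases may have gone to either gene.

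Of the 3 hydroxylases that act after spo, phm rose with both drivers, dib fell with bamGAL4 and sad was called with neither. The gene phm (FBgn0004959, named phtm in the annotation, plus strand, chrX:18685766-18688433), was near the detection floor in controls. It was at 8.11 and 10.9 CPM in nosGAL4 GKD libraries and at 0.863 and 0.260 CPM in nosGAL4 control libraries. With bamGAL4 it was at 4.87 and 5.76 CPM in GKD libraries and at 0.393 and 0.792 CPM in control libraries. All 4 GKD libraries were far above all 4 control libraries. The ratio of means was 16.9 with nosGAL4 (log2 fold change 4.07, SE 0.75, adjusted p = 0.00105) and 8.98 with bamGAL4 (3.09, SE 0.73, adjusted p = 0.00378). Both calls held under all 17 alternatives each. Since control counts were 3 to 10 per library, the size moved with single controls: the nosGAL4 log2 fold change was 5.11 without nosGAL4 control replicate 1 and 3.43 without nosGAL4 control replicate 2, and that for bamGAL4 was 3.71 without bamGAL4 control replicate 2.

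The next hydroxylase, dib (FBgn0000449, plus strand, chr3L:4062292-4064551), was scarce in every library. It was at 1.08 and 0.265 CPM in nosGAL4 GKD libraries, against 1.63 and 1.30 CPM in nosGAL4 control libraries. In bamGAL4 GKD libraries it was at 0.177 and 0 CPM, against 3.67 and 2.77 CPM in bamGAL4 control libraries. With both drivers the GKD libraries were below their controls, and both bamGAL4 GKD libraries were under the detection floor, where 0 counts allow up to 0.298 CPM. The bamGAL4 groups held 2 counts in the GKD libraries and 63 in the control libraries, a GKD to control ratio of 0.0301 with an exact 95% counting interval of 0.00357 to 0.113. The fitted log2 fold change of -4.94 (SE 1.25, adjusted p = 0.00556 in edgeR's test) rests on those 2 counts. It was -4.09 with adjusted p = 0.092 without bamGAL4 GKD replicate 2, and -7.96 without bamGAL4 GKD replicate 1, where the remaining library was at 0. The nosGAL4 value was -1.11 (SE 1.04, adjusted p = 0.376), with 10 counts in GKD libraries and 32 in control libraries. It was -2.42 without nosGAL4 GKD replicate 1 and -0.45 without nosGAL4 GKD replicate 2, called in neither. The end of dib overlaps 400 exonic bases of wit, a receptor for bone morphogenetic proteins on the other strand, which went the other way: wit rose by 2.80 on the log2 scale with nosGAL4 (adjusted p = 0.000256) and by 3.51 with bamGAL4 (adjusted p = 5.14e-05).

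The last of the 3, sad (FBgn0003312, plus strand, chr3R:11877235-11879754), was at 4.46 and 2.25 CPM in nosGAL4 GKD libraries, against 4.22 and 3.90 CPM in nosGAL4 control libraries. In bamGAL4 GKD libraries it was at 1.51 and 1.89 CPM, against 3.80 and 5.62 CPM in bamGAL4 control libraries. The nosGAL4 GKD libraries straddled their controls and the bamGAL4 GKD libraries were both below theirs. Neither passed the edgeR test, with log2 fold changes of -0.27 (SE 0.62, adjusted p = 0.726) for nosGAL4 and -1.47 (SE 0.64, adjusted p = 0.0608) for bamGAL4, and the bamGAL4 value was called in 4 of 17 alternatives. The gene shares 53 exonic bases with CG6962 on the opposite strand, which was called with neither driver.

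**Figure D2:**
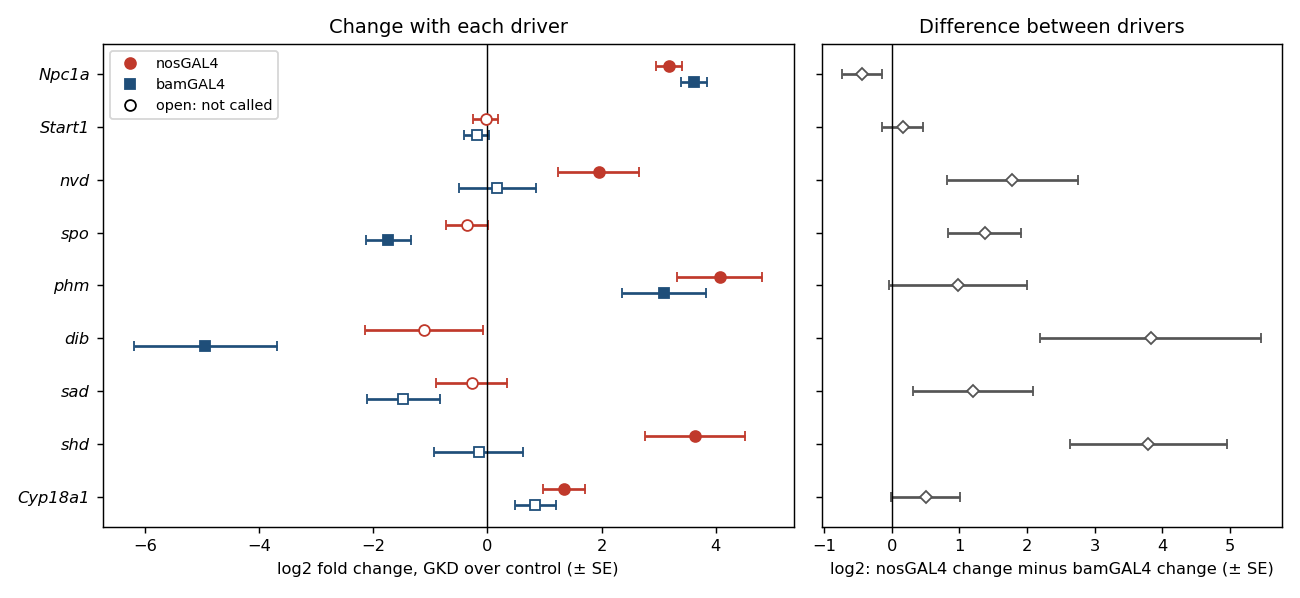
Log2 fold change of GKD over control for the 9 ecdysone genes with nosGAL4 (circles) and bamGAL4 (squares), and at right the nosGAL4 change minus the bamGAL4 change (diamonds), from edgeR, with bars for 1 SE and filled symbols for values called at an adjusted p under 0.05. Npc1a and phm lie right of 0 with both drivers, spo and dib lie left of 0 with bamGAL4, and no difference is filled.

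Of the pair that activates and inactivates the hormone, both rose with nosGAL4 and neither passed with bamGAL4. The activating hydroxylase shd (FBgn0003388, plus strand, chr3L:14614458-14622205), which in larvae works in tissues other than the gland that makes ecdysone, was at 12.2 and 2.79 CPM in nosGAL4 GKD libraries and at 0.480 and 0.693 CPM in nosGAL4 control libraries. With bamGAL4 it was at 2.22 and 2.58 CPM in GKD libraries and at 3.41 and 1.98 CPM in control libraries. The nosGAL4 GKD libraries were both above their controls but lay far apart from each other, and the bamGAL4 libraries overlapped. The nosGAL4 ratio of means was 12.7 (log2 fold change 3.64, SE 0.87, adjusted p = 0.005 in edgeR's test), and without nosGAL4 GKD replicate 1 the log2 fold change was 2.21 (adjusted p = 0.0437). With bamGAL4 it was -0.15 (SE 0.78, adjusted p = 0.868). The same 2 nosGAL4 GKD libraries differed in tissue markers: replicate 1 held 541 CPM of germline, 4656 CPM of late follicle cell, 1806 CPM of fat body and 94.3 CPM of gut markers, and replicate 2 held 202, 953, 683 and 35.9 CPM of the same lists. Oenocyte markers ran the same way, at 1195 CPM in replicate 1 and 706 CPM in replicate 2. The other 6 lists were higher in replicate 2: 5969 and 7966 CPM of escort, niche and early follicle cell, 36564 and 41328 CPM of muscle, 3178 and 4803 CPM of haemocyte, 185 and 257 CPM of neuronal, 598 and 740 CPM of Malpighian tubule and 151 and 209 CPM of oviduct and spermatheca markers in replicates 1 and 2. The part of this in the shd value was not tested.

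The inactivating enzyme Cyp18a1 (FBgn0010383, minus strand, chrX:18688538-18693042) was at 94.0 and 63.1 CPM in nosGAL4 GKD libraries, against 25.4 and 36.5 CPM in nosGAL4 control libraries. In bamGAL4 GKD libraries it was at 38.4 and 35.2 CPM, against 13.2 and 27.6 CPM in bamGAL4 control libraries. Both GKD groups lay wholly above their controls. The ratio of means was 2.54 with nosGAL4 (log2 fold change 1.34, SE 0.36, adjusted p = 0.00923) and 1.80 with bamGAL4 (0.84, SE 0.36, adjusted p = 0.0607, not called). The nosGAL4 call was lost without nosGAL4 control replicate 1 (1.09, adjusted p = 0.0881) and with scaling to ribosomal protein genes (0.77, adjusted p = 0.0863). The bamGAL4 change was called in 8 of 17 alternatives, among them DESeq2 (1.09, adjusted p = 0.00717). It was 1.47 (adjusted p = 0.0113) without bamGAL4 control replicate 2 and 0.41 (adjusted p = 0.325) without bamGAL4 control replicate 1. Cyp18a1 and phm are neighbours on the X chromosome that point toward each other, with 104 bases between their ends and no shared exon.

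Read against all genes, the counts of the 9 stand as follows. With nosGAL4, 5 of 9 were called (59.2% of all genes tested), of which 5 were higher, where 33.5% of all genes were, and 0 lower, where 25.7% of all genes were. None of the 9 fell at an unadjusted p under 0.05 with nosGAL4, nor in DESeq2 at an adjusted p under 0.05. With bamGAL4, 4 of 9 were called (68.1% of all genes tested), of which 2 were higher, against 35.0% of all genes, and 2 lower, against 33.1%. The filter admitted phm through the GKD groups alone, dib through the control groups alone, and shd through all groups but the nosGAL4 control. The calls of phm with both drivers and of dib with bamGAL4 are thus of genes admitted through the side where they were high. The counts are therefore descriptive only. Both GKD libraries were above both controls in 5 of 9 genes with nosGAL4 (42.1% of all genes) and below in 1 (37.7%), and with bamGAL4 above in 3 (43.4%) and below in 4 (43.8%). The median log2 fold change of the 9 was 1.34 with nosGAL4, against 0.11 over all genes tested, and -0.15 with bamGAL4, against -0.06. The share called in either direction was thus near or below that of all genes with both drivers. The split of all genes depended on scaling: with nosGAL4 it was 3004 higher and 2303 lower, and 2193 and 3275 with scaling to ribosomal protein genes or 2449 and 3246 with library totals alone. With bamGAL4 it was 3138 higher and 2961 lower, and 4145 and 1183 with scaling to ribosomal protein genes. Relative to the median of all genes under ribosomal protein gene scaling, spo with bamGAL4 stood at -1.68, and nvd and Cyp18a1 with nosGAL4 at 1.77 and 1.18 on the log2 scale.

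Whether a change differed between the drivers was tested as the nosGAL4 log2 fold change minus the bamGAL4 one. None of the 9 differences was called (1.52% of all genes were called higher and 1.16% lower), while 3 had an unadjusted p under 0.05, and DESeq2 called 1, shd. These 3 were shd with 3.79 (95% interval 1.21 to 6.37, adjusted p = 0.09), dib with 3.83 (0.20 to 7.46, adjusted p = 0.184) and spo with 1.37 (0.18 to 2.57, adjusted p = 0.158) in edgeR's test. At an unadjusted p under 0.05, DESeq2 had 1 difference higher, shd, and 1 lower, so dib and spo did not reach it there. The size of these 3 differences moved with single libraries. The difference of shd was 2.37 (adjusted p = 0.218) without nosGAL4 GKD replicate 1 and 4.48 (adjusted p = 0.00907, called) without nosGAL4 GKD replicate 2, and that of spo was 0.66 (adjusted p = 0.36) and 1.84 (adjusted p = 0.00914, called) in the same pair of edgeR fits. For dib it was 2.53 without nosGAL4 GKD replicate 1 and 6.84 without bamGAL4 GKD replicate 1, called in neither. Marker levels also differed between the drivers' GKD libraries: late follicle cell markers summed to 4656 and 953 CPM with nosGAL4 and 184 and 181 CPM with bamGAL4, and germline markers to 541 and 202 CPM with nosGAL4 and 70.1 and 132 CPM with bamGAL4. The median difference was 5.52 over late follicle cell and 0.70 over germline markers. It was also above 0 for gut (7.43), neuronal (0.56), Malpighian tubule (0.38), oviduct and spermatheca (0.19) and muscle (0.04) markers. For fat body (-4.04), oenocyte (-4.13), haemocyte (-0.42), and escort, niche and early follicle cell markers (-0.01) it was below 0. The part of the markers in the differences of shd, dib and spo was not tested. So the effects called with 1 driver only, for nvd, spo, dib, shd and Cyp18a1, are not shown to differ between the drivers. For the genes called with both drivers the difference was -0.43 for Npc1a (-1.09 to 0.22, adjusted p = 0.38) and 0.98 for phm (-1.29 to 3.24, adjusted p = 0.581). The remaining differences were 1.78 for nvd (-0.38 to 3.94), 1.2 for sad (-0.76 to 3.16), 0.50 for Cyp18a1 (-0.62 to 1.63) and 0.16 for Start1 (-0.52 to 0.84).

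**Figure D3:**
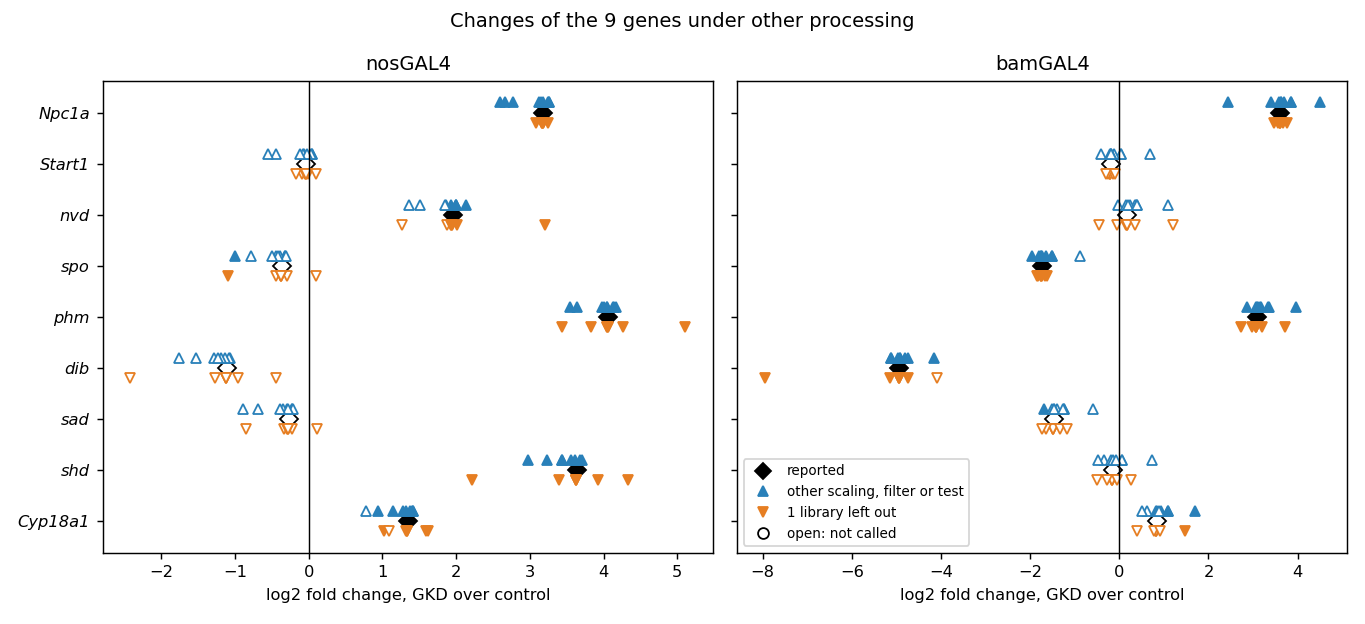
Log2 fold change of each ecdysone gene with nosGAL4 (left) and bamGAL4 (right), as reported (diamond), under other scalings, filters, tests and designs (upward triangles) and with 1 library left out (downward triangles), filled where called. Npc1a and phm stay above 1 under all alternatives, while Start1 crosses 0 with both drivers.

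To compare levels between genes, CPM were divided by the length of the longest annotated transcript (CPM per kb). In nosGAL4 GKD ovaries the order was Npc1a at 90.8, Cyp18a1 at 25.8, Start1 at 24.8, spo at 8.58, nvd at 5.68, phm at 4.31, shd at 2.50, sad at 1.89 and dib at 0.341 CPM per kb. In nosGAL4 control ovaries Start1 led with 25.3, followed by spo at 11.0, Cyp18a1 at 10.2, Npc1a at 10.0, sad at 2.29, nvd at 1.47, dib at 0.742, phm at 0.255 and shd at 0.196 CPM per kb. Npc1a was thus the most abundant of the 9 in the GKD group and among a cluster of 3 genes below Start1 in the control group, where the libraries of Cyp18a1 overlapped those of spo and those of Npc1a, while spo lay just above Npc1a. Other neighbours whose libraries overlapped were Cyp18a1 and Start1, spo and nvd, phm and shd, and shd and sad in the GKD group, and sad and nvd, nvd and dib, and phm and shd in the control group.

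In bamGAL4 GKD ovaries the order was Npc1a at 96.1, Start1 at 26.0, Cyp18a1 at 12.1, nvd at 4.28, phm at 2.41, spo at 1.78, sad at 0.957, shd at 0.804 and dib at 0.0449 CPM per kb, and only sad and shd overlapped. In bamGAL4 control ovaries it was Start1 at 29.7, Npc1a at 7.83, Cyp18a1 at 6.69, spo at 5.95, nvd at 3.85, sad at 2.66, dib at 1.63, shd at 0.902 and phm at 0.269 CPM per kb. There, the libraries of Npc1a and Cyp18a1, Cyp18a1 and spo, spo and nvd, and nvd and sad overlapped. The hydroxylases phm and dib stood in opposite order in GKD and control ovaries of each driver: phm was above dib in both GKD groups and below it in both control groups.

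**Figure D4:**
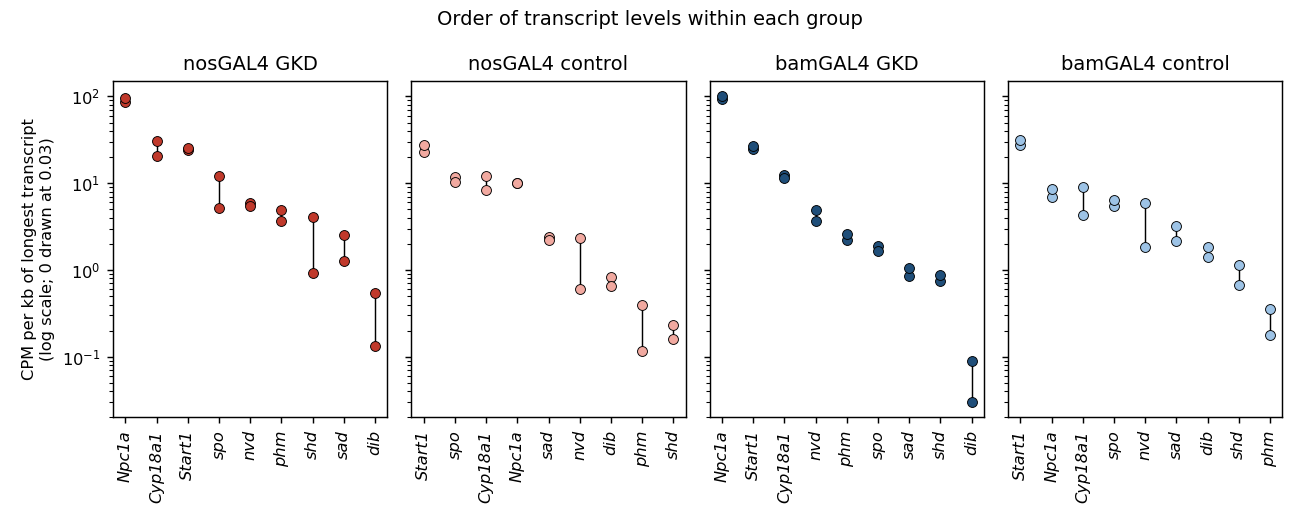
Level of the 9 ecdysone genes as CPM per kb of the longest transcript (log axis, with a value of 0 drawn at 0.03), 1 point per library with a line joining the libraries of a group, in the 4 groups. In both GKD groups Npc1a is highest, at 90.8 and 96.1 CPM per kb on average, and dib lowest, while Start1 leads both control groups.

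Other genes around the pathway were taken as 4 lists. Genes at or near 0 in control libraries could enter the test through GKD libraries alone, so the counts describe the genes tested and not the whole lists. Over all genes tested, 33.5% were called higher and 25.7% lower with nosGAL4, and 35.0% and 33.1% with bamGAL4. Of 10 further synthesis genes and their transcription factors, 7 were tested, of which 2 rose, 3 fell and 2 were not called with nosGAL4, and 3 rose, 3 fell and 1 was not called with bamGAL4 (median log2 fold change -0.16 and 0.18, against 0.11 and -0.06 over all genes). With the trend on transcript length removed, 2 rose and 5 fell with each driver, and with scaling to ribosomal protein genes, which raised the median of all genes with bamGAL4 by 0.87, 4 rose and 1 fell with bamGAL4. The enzyme gene sro (shroud), which acts beside spo, was at 2.57 and 1.46 CPM in nosGAL4 GKD libraries and 7.96 and 4.68 CPM in nosGAL4 control libraries, and at 1.51 and 1.39 CPM in bamGAL4 GKD libraries and 10.2 and 14.5 CPM in bamGAL4 control libraries. Both GKD groups lay below their controls, and sro fell by 1.64 with nosGAL4 (SE 0.55, adjusted p = 0.0251) and by 3.08 with bamGAL4 (SE 0.56, adjusted p = 0.000756) on the log2 scale. The transcription factor genes vvl and kni, whose products switch on synthesis enzymes in the larval gland, rose. The log2 fold change of vvl was 4.79 (SE 0.58) with nosGAL4, and with bamGAL4 the GKD to control ratio was 288 (counting interval 79.3 to 2381, 2 control counts). For kni the ratio was 51.5 (17.1 to 254, 3 control counts) with nosGAL4 and 44.1 (11.9 to 370, 2 control counts) with bamGAL4. The zinc-finger gene woc, needed for synthesis in larvae, fell by 1.48 (SE 0.31) with nosGAL4 and by 1.01 (SE 0.31) with bamGAL4. With bamGAL4 it was not called after scaling to ribosomal protein genes (-0.14, adjusted p = 0.788). Relative to the median of all genes, woc with bamGAL4 stood at -0.95 as reported and at -0.94 under that scaling. Another zinc-finger gene, mld, rose by 0.98 (SE 0.22) with bamGAL4. Once the trend on transcript length was removed, mld was at -0.94 (adjusted p = 0.00183), a value relative to genes of similar length. The spo copy spok, the main larval form, had 4 counts in all 8 libraries together and was not tested, as were Cyp6t3 and ouib.

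Of 12 sterol-handling genes, 7 were tested, of which 3 rose and 1 fell with nosGAL4 and 3 rose and 2 fell with bamGAL4. Among all genes tested, 33.5% rose and 25.7% fell with nosGAL4, and 35.0% rose and 33.1% fell with bamGAL4. The median log2 fold changes of the 7 were 2.31 and 2.19. With scaling to ribosomal protein genes, 5 rose and 0 fell with bamGAL4. The risen genes were the same with both drivers: Npc2b, Npc2g and Npc2h, which encode small secreted sterol-binding proteins of the Niemann-Pick C2 family. Npc2b had a GKD to control ratio of 234 with nosGAL4 (64.2 to 1939, 2 control counts) and a log2 fold change of 6.32 (SE 0.46) with bamGAL4. Npc2g rose by 2.55 with nosGAL4 and 6.13 with bamGAL4, and Npc2h by 2.68 and 6.52. For both the difference between the drivers was called, at -3.58 (SE 0.61, adjusted p = 0.0233) for Npc2g and -3.84 (SE 0.87, adjusted p = 0.0487) for Npc2h. Fat body and oenocyte markers differed between the drivers in the same direction, with summed levels of 1806 and 683 CPM of fat body markers in nosGAL4 GKD libraries and 7659 and 9103 CPM in bamGAL4 GKD libraries, and 1195 and 706 CPM against 3976 and 3491 CPM of oenocyte markers. The median difference was -4.04 over 9 fat body markers and -4.13 over 4 oenocyte markers, with 2 of each called lower. Summed levels of haemocyte, muscle, neuronal, Malpighian tubule, and oviduct and spermatheca markers were also higher in bamGAL4 GKD libraries. Of the oviduct and spermatheca markers 2 were called lower, with a median difference of 0.19. Gut and late follicle cell markers had median differences of 7.43 and 5.52, the other way. The part of these lists in the Npc2g and Npc2h values was not tested. The sterol-sensing nuclear receptor gene Hr96 fell by 1.68 with nosGAL4 and by 1.41 with bamGAL4, and with bamGAL4 it was not called after scaling to ribosomal protein genes (-0.54, adjusted p = 0.232). Relative to the median of all genes, Hr96 with bamGAL4 stood at -1.36 as reported and at -1.35 under that scaling. Not tested were the gut sterol transporter gene Npc1b, Npc2c, Npc2d, Npc2e and mag.

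Of 4 genes of ecdysteroid transport and turnover, 3 were tested and all were called with both drivers, 2 higher and 1 lower. Of all genes tested, 59.2% were called with nosGAL4 and 68.1% with bamGAL4. Atet, which loads ecdysone into secretory vesicles in the larval gland, rose by 2.79 (SE 0.22) with nosGAL4 and 3.58 (SE 0.23) with bamGAL4. Oatp74D, the importer that lets ecdysone into cells, rose by 3.60 (SE 0.36) and 5.00 (SE 0.38). E23, a transporter that can lower the response of a cell to ecdysone, fell by 1.02 (SE 0.22) with nosGAL4 and by 0.64 (SE 0.22) with bamGAL4, where scaling to ribosomal protein genes turned its sign (0.25, adjusted p = 0.541). Relative to the median of all genes, E23 stood at -0.58 as reported and at -0.56 under that scaling. No difference between the drivers was called for these (Atet -0.78, adjusted p = 0.147, and Oatp74D -1.40, adjusted p = 0.122). Of 18 receptor and response genes, 16 were tested, with 9 higher and 2 lower for nosGAL4 and 10 higher and 2 lower for bamGAL4. The shares of all genes were 33.5% higher and 25.7% lower for nosGAL4, and 35.0% and 33.1% for bamGAL4. The medians of the 16 were 1.93 and 1.91 (1.69 for bamGAL4 with Hr38, at 0 counts in the control, set to its bound). The named ones were Blimp-1, Eip75B, Kr-h1 and tai, with log2 fold changes of 3.59 and 2.31 for Eip75B, 4.18 and 4.12 for Kr-h1 and 2.61 and 3.47 for tai with nosGAL4 and bamGAL4, and for Blimp-1 a ratio of 618 (170 to 5109, 2 control counts) with nosGAL4 and a log2 fold change of 7.95 with bamGAL4. With the trend on transcript length removed, the receptor and response counts were 7 higher and 3 lower for nosGAL4 and 4 higher and 4 lower for bamGAL4, where the median was -0.09. Under that correction Eip75B was not called with bamGAL4 (0.11, adjusted p = 0.71), and tai was at 0.56 with nosGAL4 and 0.62 with bamGAL4, both still called. The receptor gene EcR, named here after its values were seen, was called higher with bamGAL4 (0.94, adjusted p = 0.00489) and not called with nosGAL4 (0.14, adjusted p = 0.632). Under the correction, which sets a gene against genes of similar transcript length, EcR was called lower with bamGAL4 (-1.34, adjusted p = 0.000639) and nosGAL4 (-1.33, adjusted p = 0.000726). Its own level was 68.9 and 86.2 CPM in bamGAL4 GKD libraries, against 44.0 and 36.7 CPM in bamGAL4 control libraries. With nosGAL4 it was 81.9 and 102 CPM in GKD libraries, against 83.2 and 84.5 CPM in control libraries. Also named after its values were seen, usp was called lower with nosGAL4 (-0.98, adjusted p = 0.00873) and bamGAL4 (-0.92, adjusted p = 0.0102). With bamGAL4, usp was at -0.04 (adjusted p = 0.942) under scaling to ribosomal protein genes. ImpL2, which encodes a secreted binder of insulin-like peptides, was the 1 gene of this list whose change differed between the drivers (3.02, SE 0.43, adjusted p = 0.00914), with a log2 fold change of 0.61 (not called) with nosGAL4 and -2.41 (called) with bamGAL4. These 4 lists move beside the same tissue markers as the 9 genes, and the part of the markers in them was not tested.

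**Figure D5:**
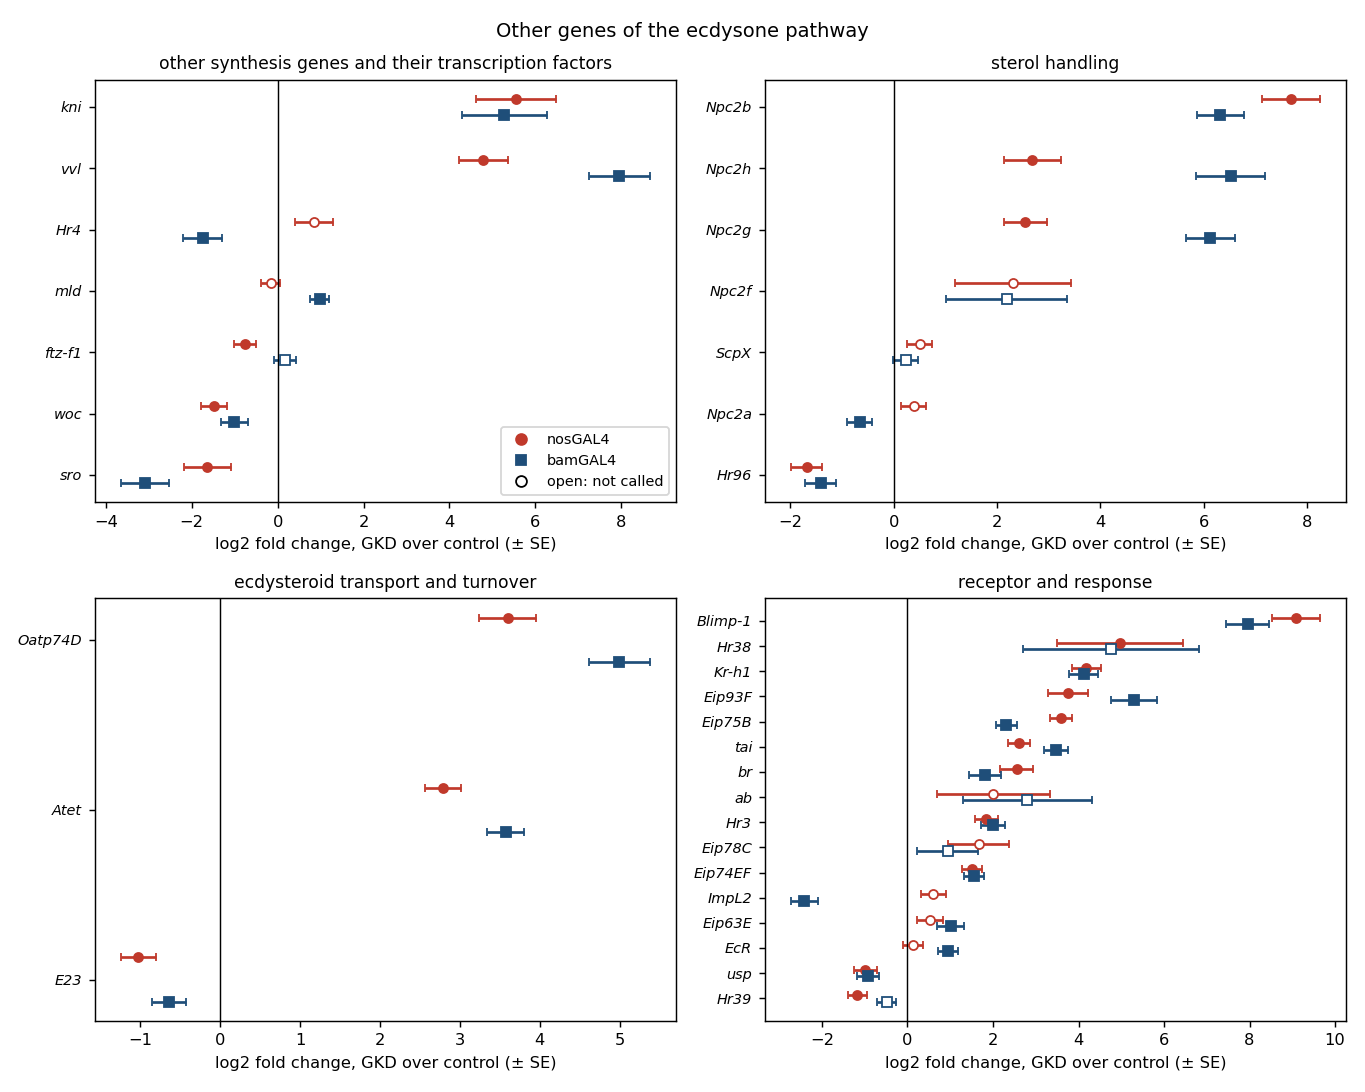
Log2 fold change of GKD over control for the tested genes of the 4 lists around ecdysone, with nosGAL4 (circles) and bamGAL4 (squares), from edgeR, with bars for 1 SE, filled where called at an adjusted p under 0.05; fitted values of genes with 0 to 3 control counts depend on the prior count. Atet and Oatp74D lie right of 0 with both drivers and sro lies left of 0 with both.

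The genes whose levels went up and down most closely with each of the 9 across the 8 libraries were found by Pearson's r of log2 CPM. They were sought among genes with a mean of at least 5 CPM. Such an r takes no account of level or size of change: abd-A, below, changed by 8.83 with nosGAL4 and 10.4 with bamGAL4 on the log2 scale, and Npc1a by 3.18 and 3.62. These r describe libraries that share groups and markers, so a gene that separates GKD from control libraries will correlate with many others. For Npc1a they were the Hox gene abd-A and Zasp52, which encodes a protein of the muscle Z-disc (r 0.9997 and 0.999). For phm they were bib and pyr, a ligand of the fibroblast growth factor family (0.993 and 0.992). For dib they were Nup62, which encodes a nuclear pore protein, and MED20 (0.989 and 0.984). For sad they were CG11030 and CG7839 (0.989 and 0.982), and for spo Muc12Ea and CG4282 (0.978 and 0.972). For Cyp18a1 they were Mct1 and CG10175 (0.97 and 0.968), for shd daw, which encodes an activin-like ligand, and CG17272 (0.956 and 0.953), for nvd Clbn and CG31673 (0.956 and 0.899), and for Start1 Egm and PIG-S (0.945 and 0.919).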

How the data were processed

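The values are estimated counts per gene that the authors deposited, 1 column per library. Per the submitters' processing notes, the tools were STAR 2.7.5b, Salmon 1.2.1, FastQC 0.11.8 and Trim Galore 0.6.6, and the build was dm6, with the role of each tool, the annotation and the strand setting not given in the sources used. The kit was directional, per the labels. Counts were rounded and filtered (filterByExpr, minimum count 10, minimum total 15), and 8957 of 14094 genes were tested. One model of 4 groups over all 8 libraries, with 4 residual degrees of freedom and no block, was fitted with edgeR 4.0.16 (TMM, robust quasi-likelihood, prior count 0.125) in R 4.3.3. The code was first run on simulated counts in which few genes changed, unlike these data, so that run does not bear on the scaling. DESeq2 1.42.0 and other scalings, filters and designs were run as alternatives, given in the closing section. Positions come from the annotation BDGP6.54 (dm6 coordinates), which holds 14048 of the 14094 identifiers. Intervals from counts cover counting error only. The 9 genes, the marker lists and the pathway lists were chosen with earlier results of these data known. Named from each pathway list were up to 4 called genes per driver with the smallest adjusted p (or 2 where none was called). The 2 genes most correlated with each of the 9 were named as well.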

Additional observations from a re-analysis of the deposited data

How the results depend on the processing

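The 9 called changes of ecdysone genes had the same sign in all 151 alternative fits of them and remained called in 139. Of all fits of the 9 genes in the 3 comparisons, 390 gave the same verdict, 18 gained a call, 12 lost one and 24 turned sign, and the cause was not tested. Scaling to 88 ribosomal protein genes moved the median log2 fold change of all genes by -0.52 for nosGAL4, 0.87 for bamGAL4 and -1.40 for their difference. It left 3 members called higher and 1 lower with nosGAL4, 1 lower with bamGAL4 and 2 differences called lower. With bamGAL4, Npc1a (4.49, adjusted p = 8.98e-07 in edgeR) and phm (3.95, adjusted p = 0.00137) stayed called higher under it. The median of all genes moved by -0.38, -0.22 and -0.20 with library totals, by 0.07, 0.22 and -0.15 with RLE size factors, and by -0.22, -0.15 and -0.12 with the length correction. DESeq2 called 1 difference higher. The stricter filter, which removes dib and shd, left 1 gene lower with bamGAL4.

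The 24 signs that turned belonged to values of the 9 genes that were not called as reported. With nosGAL4, Start1 was 0.0469 under RLE size factors, 0.0466 with DESeq2 and 0.0302 under the stricter filter. With bamGAL4, shd was 0.0594 under RLE size factors, 0.0551 with DESeq2 and 0.74 under ribosomal protein gene scaling, Start1 was 0.0372, 0.0367 and 0.69 under the same settings, and nvd was -0.0193 with library totals. The difference of Start1 was -0.0315 with library totals, and under ribosomal protein gene scaling the differences were -1.24 for Start1 (adjusted p = 0.049 in edgeR), -0.92 for Cyp18a1, -0.41 for phm, -0.29 for sad and -0.13 for spo. That scaling moves all differences alike: relative to the median of all genes, they were -0.00373 for Start1, 0.32 for Cyp18a1, 0.83 for phm, 0.95 for sad and 1.11 for spo, against 0.00304, 0.34, 0.82, 1.04 and 1.22 as reported. The difference of Npc1a was 0.16 with the length correction.

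Leaving out single libraries gave 4 to 5 genes higher and 0 to 1 lower with nosGAL4, 2 to 3 higher and 1 to 3 lower with bamGAL4, and 0 to 2 differences higher and 0 lower. It turned a sign for 6 values, whose ranges were -1.09 to 0.0973 for spo, -0.853 to 0.12 for sad and -0.17 to 0.0989 for Start1 with nosGAL4, -0.46 to 1.2 for nvd and -0.51 to 0.27 for shd with bamGAL4, and -0.14 to 0.92 for the difference of Cyp18a1. The libraries that turned them were nosGAL4 GKD replicate 2 for spo and sad, nosGAL4 control replicate 2 for Start1, bamGAL4 GKD replicate 2 or control replicate 2 for nvd, bamGAL4 control replicate 1 for shd and bamGAL4 control replicate 2 for Cyp18a1.

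Over all genes, the differences between drivers were 136 higher and 104 lower. They were 119 and 161 with RLE size factors, 104 and 176 with library totals, 94 and 3384 with ribosomal protein gene scaling, 455 and 609 with DESeq2, 289 and 248 with no filter, 65 and 70 with the length correction, and 17 to 997 higher and 10 to 573 lower when a library was left out. With the replicate number as a block, they were 45 and 54, and the ecdysone genes gave the same counts as without the block, 5 higher and 0 lower with nosGAL4, 2 higher and 2 lower with bamGAL4 and 0 differences. Same-numbered libraries did not deviate together (correlations of -0.05 to 0.03), so no shared deviation by number was seen. With 2 libraries per group this cannot exclude that same-numbered libraries were handled together, and the labels do not say.

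Precision is limited by 2 libraries per group and, for phm, dib and shd, by counts near the floor. A leave-one-out fit assumes that a lone library varies like the others.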
